A study of Mus musculus with 8 samples.

Results

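Beta-catenin, its close relative plakoglobin and 8 further components of canonical Wnt signalling were examined in mouse HSPCs, the stem and progenitor cells from which blood is formed. The genes were taken by symbol: Ctnnb1, Jup, Apc, Axin1, Gsk3b, Csnk1a1, Ctnnbip1, Tcf7l2, Lef1 and Tcf7. All 10 were among the 24421 genes listed in the deposited count table. The cells were harvested from mice after a primary transplant, and each of 4 groups had 2 RNA-seq libraries. The dKOPRMT group was dKO cells transduced with wild-type PRMT1, an enzyme that methylates arginines. The dKOMut group was dKO cells transduced with an enzymatically dead PRMT1, the dKOEV group was dKO cells with an empty vector, and the WTEV group was wild-type cells with an empty vector. The dKO cells shared by the first 3 groups lack beta-catenin and Hoxa9, as far as the series title names them. The exons removed, the Cre driver or other means of deletion, the strain, age and sex of the mice and the number of animals behind a library were not stated in the labels.

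In canonical Wnt signalling, beta-catenin is made continuously and, without a Wnt ligand, is phosphorylated and marked for degradation by a complex that Axin and APC hold together with the kinases GSK3 and casein kinase 1. A Wnt ligand bound to Frizzled and LRP5 or LRP6 blocks that complex, and beta-catenin then accumulates and binds TCF and LEF factors in the nucleus. The pathway is thus regulated mostly at the protein level, which transcript counts do not measure. Plakoglobin (gamma-catenin) is a desmosomal and adherens junction protein with the same armadillo fold, and it can also bind TCF and LEF factors. In blood, Tcf7 and Lef1 are best known for their roles in T cell development.

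The libraries held 15531344 to 22329749 counts, and 12744 genes passed the filter on low counts and were tested. Values are CPM, counts scaled to the library size with TMM, and effects are log2 fold changes ± SE between groups of 2 libraries. A gene is said to have risen, fallen or been called where the adjusted p was under 0.05, by the quasi-likelihood test of edgeR and Benjamini-Hochberg adjustment over all tested genes. Whether replicates were separate animals or cultures is not labelled, and the p-values therefore reflect only how far these libraries spread, which may be technical. Prmt1 stood at 980.3 and 975 CPM in dKOPRMT, at 1744 and 1758 CPM in dKOMut, at 189.7 and 194 CPM in dKOEV and at 188 and 192 CPM in WTEV. In dKOPRMT against dKOMut it differed by -0.84 ± 0.03 (adjusted p = 2.6e-19). These groups thus differ in Prmt1 transcript level as well as in enzyme activity, and their comparison cannot tell these apart. Hoxa9 stood at 3.76 and 1.87 CPM in dKOPRMT, 4.85 and 1.95 CPM in dKOMut, 5.79 and 3.63 CPM in dKOEV, and 18.2 and 17.2 CPM in WTEV. The genotype label of dKOMut replicate 2 names PRMT2 in place of PRMT1, and its Prmt1 level matched that of its replicate. Of 15 stem and progenitor markers, 14 averaged 1 CPM or more in every group. The 15 summed to 1014 to 1024 CPM in dKOPRMT and 1103 to 1125 CPM in dKOMut. They summed to 1176 to 1230 CPM in dKOEV and 1320 to 1330 CPM in WTEV. The markers did not move together. Against WTEV, 4 rose and 5 fell in dKOEV, where 15.4% of all tested genes were called. In dKOPRMT 1 rose and 7 fell (23.2% of all tested genes), and in dKOMut 3 rose and 5 fell (19.4%). Kit averaged 171 CPM in dKOPRMT and 141 CPM in WTEV, while Gata2 averaged 116 CPM and 245 CPM. The 13 neutrophil markers, which include genes of granulocyte progenitors, summed to 28823 to 29152 CPM in dKOPRMT, 29064 to 29629 CPM in dKOMut, 21979 to 22911 CPM in dKOEV and 15943 to 15977 CPM in WTEV.

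The promoters of Ctnnb1 and Jup are shown because these were the catenin genes whose transcripts changed between groups, and because the protein of one deleted gene acts through TCF and LEF factors while the other is itself a DNA-binding factor. The sequences are from RefSeq (GRCm38.p6) and run from 250 bases before to 50 bases after the gene's start, 5′ to 3′ on the gene's strand, with CG dinucleotides in capitals. Ctnnb1 lies on chromosome 9 from 120933400 to 120960507 on the plus strand, with 15 merged exons, and its window is chr9:120933150-120933449. Jup lies on chromosome 11 from 100368856 to 100397790 on the minus strand, with 14 merged exons, and its window is chr11:100397741-100398040.
Ctnnb1: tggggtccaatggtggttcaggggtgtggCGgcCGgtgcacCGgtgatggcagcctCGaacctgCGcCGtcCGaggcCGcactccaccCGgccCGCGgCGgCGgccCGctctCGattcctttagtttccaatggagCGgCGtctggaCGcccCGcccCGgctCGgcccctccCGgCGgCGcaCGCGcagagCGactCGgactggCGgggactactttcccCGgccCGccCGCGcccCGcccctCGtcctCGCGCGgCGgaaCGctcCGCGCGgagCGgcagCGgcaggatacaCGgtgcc
Jup: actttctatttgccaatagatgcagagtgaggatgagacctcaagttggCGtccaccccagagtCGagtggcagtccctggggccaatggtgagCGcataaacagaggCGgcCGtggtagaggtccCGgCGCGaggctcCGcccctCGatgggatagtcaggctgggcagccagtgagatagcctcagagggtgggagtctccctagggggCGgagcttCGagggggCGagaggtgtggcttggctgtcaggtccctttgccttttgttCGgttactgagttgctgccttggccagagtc
The Ctnnb1 window held 46 CG dinucleotides at 75.3% GC and the Jup window 14 at 60.7% GC, against a median of 7 CG dinucleotides over all 32851 RefSeq promoter windows, whose quartiles were 3 and 20. The TCF and LEF motif CTTTGAT and the motif TGATTTA of HOXA9 with PBX or MEIS were searched on both strands. Neither was found in these windows, nor in any of the 14 windows of the 7 genes that matched the RefSeq table. CTTTGAT occurred in 3.73% and TGATTTA in 2.97% of all windows of this length. The absence of these letters from the windows says nothing about binding of the factors elsewhere.

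The genes spanned a wide range of transcript levels, and the order was nearly the same in the 4 groups. Levels between genes are compared as CPM per kb of the deposited gene length. Csnk1a1, the casein kinase 1 alpha that primes beta-catenin for GSK3, was the most abundant, at group means of 152 CPM per kb in dKOPRMT and 148 CPM per kb in WTEV, with the other groups between them. Ctnnb1 followed, at 102 CPM per kb in dKOPRMT, 101 CPM per kb in dKOMut, 106 CPM per kb in dKOEV and 124 CPM per kb in WTEV. Axin1 was next at 24.7 CPM per kb in dKOPRMT and 21.2 CPM per kb in WTEV, followed by Gsk3b at 13.2 CPM per kb in both of those groups. Ctnnbip1, Apc, Jup, Tcf7l2 and Tcf7 all lay between 0.89 and 4.66 CPM per kb. Among these, Ctnnbip1 overlapped Apc in dKOPRMT, dKOMut and dKOEV, Jup overlapped Tcf7l2 in dKOMut, and Tcf7l2 overlapped Tcf7 in WTEV. Those pairs did not differ there beyond the spread of their libraries. The libraries of the other neighbours in each group's order did not overlap. Jup ranked above Tcf7l2 in dKOMut, dKOEV and WTEV and below it in dKOPRMT. Lef1 was last everywhere, at 0 CPM per kb in dKOPRMT and 0.085 CPM per kb in WTEV.

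**Figure D1:**
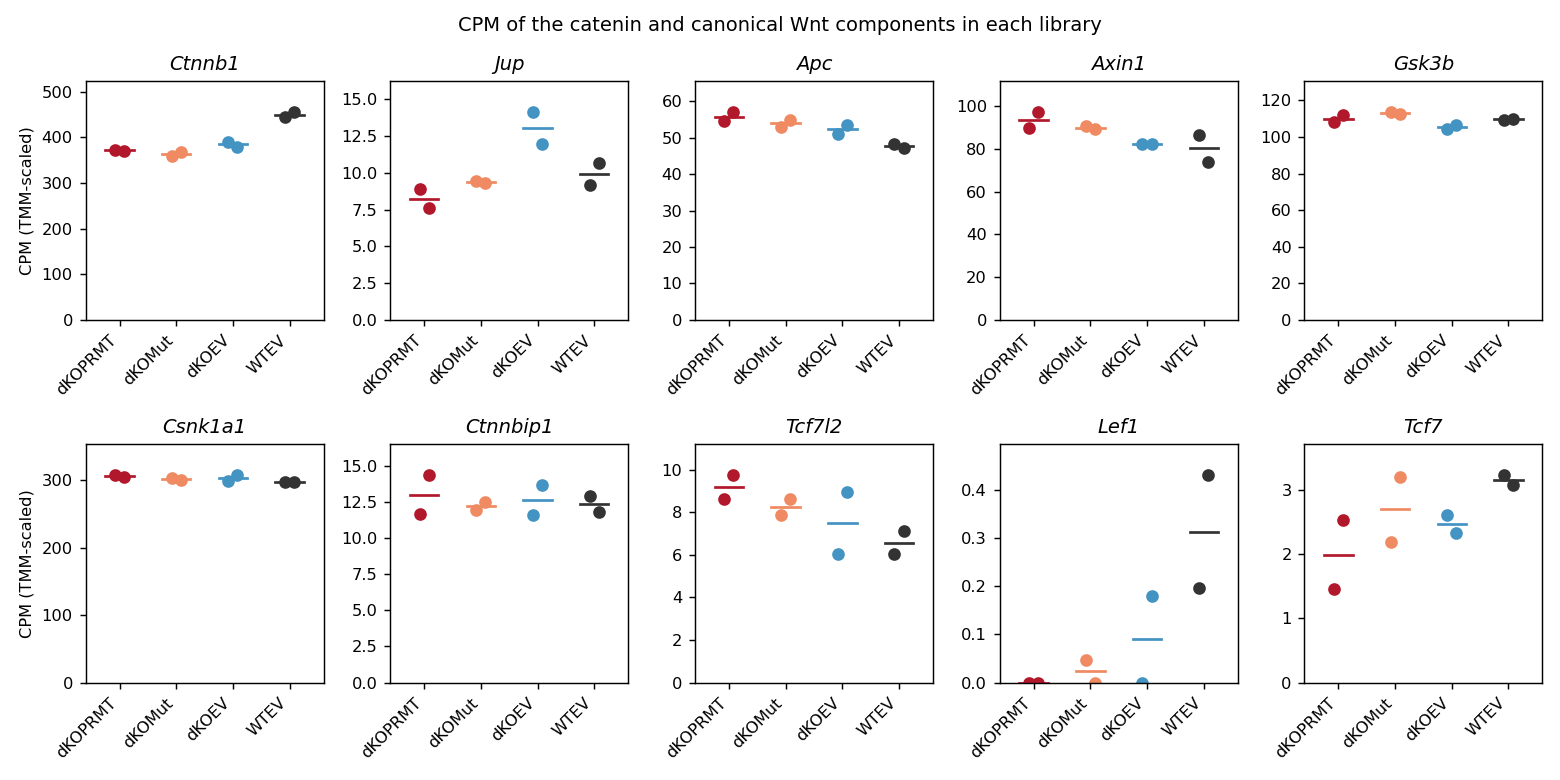
CPM (vertical axes, from 0) of the 10 genes in each of the 8 libraries, with the dKOPRMT, dKOMut, dKOEV and WTEV groups from left to right; points are libraries and bars are group means. All 6 dKO libraries have less Ctnnb1 (360.0 to 390.4 CPM) than the WTEV libraries (444 and 455 CPM), and Jup is highest in the dKOEV libraries (14.1 and 11.96 CPM).

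Few of the 10 genes differed between groups in the test. Lef1 did not pass the filter on low counts, so 9 were tested. In dKOEV against WTEV, 1 of the 9 fell (Ctnnb1) and 0 rose, against 15.4% of all tested genes called in either direction (8.44% higher, 7% lower). In dKOPRMT against dKOEV, 1 fell (Jup) and 0 rose, against 14.6% of all tested genes (5.96% higher, 8.67% lower). In dKOMut against dKOEV, edgeR called 0 of 9, against 11.3% of all tested genes (4.24% higher, 7.08% lower), with 1 (Jup) at an unadjusted p under 0.05, and DESeq2 and limma voom also called 0. Between dKOPRMT and dKOMut, the comparison of active with dead enzyme, edgeR, DESeq2 and limma voom each called 0 of 9 and 0 had an unadjusted p under 0.05 in edgeR, against 3.11% of all tested genes called (1.43% higher, 1.68% lower). In dKOPRMT against WTEV, 2 rose (Apc and Axin1) and 1 fell (Ctnnb1), against 23.2% of all tested genes (11% higher, 12.2% lower). In dKOMut against WTEV, 1 fell (Ctnnb1) and 0 rose, against 19.4% of all tested genes (9.41% higher, 9.96% lower). With 9 genes, a single call moves the share by 11.1 percentage points, and none of these counts stands apart from the share of all genes. The median log2 fold change of the 9 genes lay between 0.02 and 0.04 in the 6 comparisons, and that of all tested genes between -0.0014 and 0.0024. With 2 libraries a group, groups that do not overlap are common: this held for 52.8% of all tested genes in dKOEV against WTEV, 52.3% in dKOPRMT against dKOEV, 48.2% in dKOMut against dKOEV, 44.1% in dKOPRMT against dKOMut, 62.6% in dKOPRMT against WTEV and 57.9% in dKOMut against WTEV. The comparisons with dKOEV share its 2 libraries, and those with WTEV share its 2 libraries, so they are not independent of each other.

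**Figure D2:**
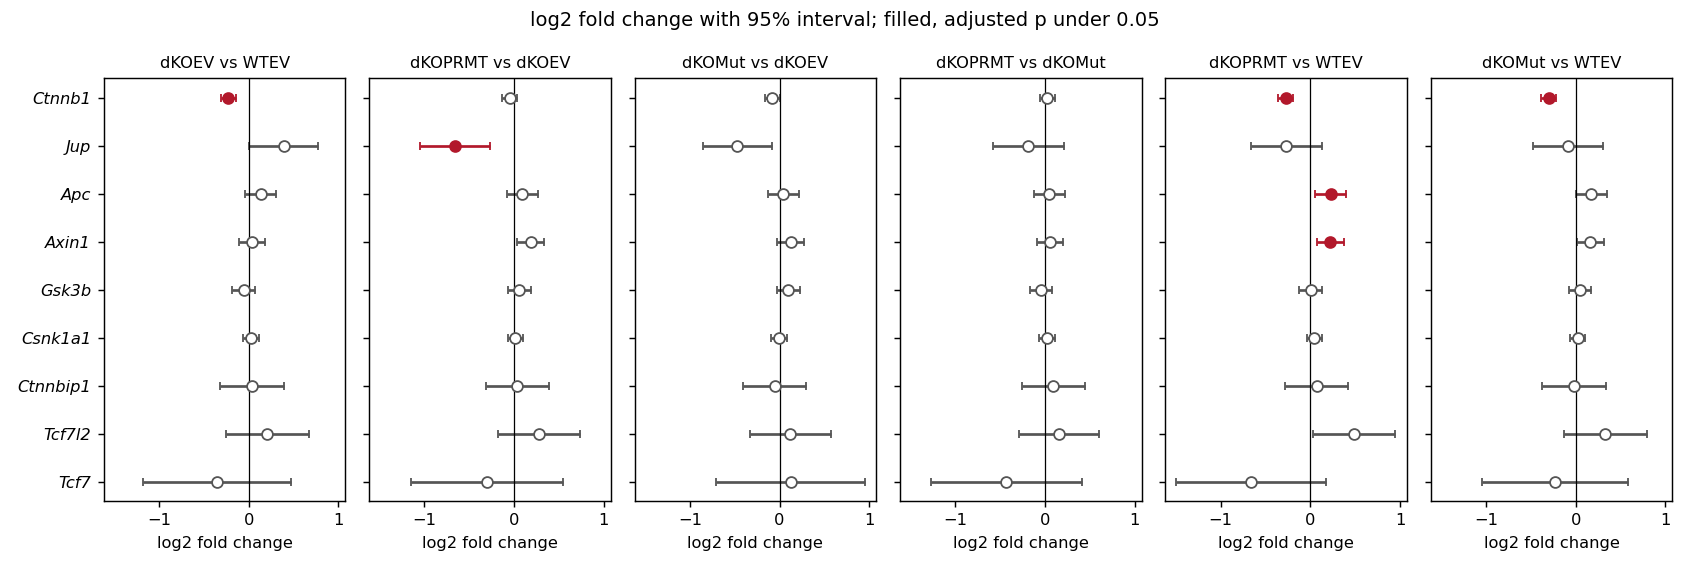
log2 fold change (horizontal axes) of the 9 tested genes in each comparison, with 95% intervals; filled points passed an adjusted p of 0.05. Ctnnb1 is left of 0 in the comparisons of dKO groups with WTEV, from -0.30 to -0.23, and Jup has its lowest value, -0.66, in dKOPRMT against dKOEV.

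Ctnnb1 transcripts were present in quantity in every dKO library and were modestly lower than in wild type. Ctnnb1, the transcriptional effector of the pathway, stood at 372 and 370.4 CPM in dKOPRMT, 360.0 and 368 CPM in dKOMut, 390.4 and 379 CPM in dKOEV, and 444 and 455 CPM in WTEV. The dKO libraries were all below the wild-type libraries, and the groups did not overlap. In dKOEV it fell by 14.5% against WTEV (-0.23 ± 0.04, adjusted p = 6.5e-05). It also fell against WTEV by 17.4% in dKOPRMT (-0.28 ± 0.04, adjusted p = 9.8e-07) and by 19.0% in dKOMut (-0.30 ± 0.04, adjusted p = 1.7e-07). Gene-level counts add the reads of all 15 exons, and without the deleted exons they do not check the loss of a functional transcript or of the protein. In bulk libraries, fewer cells of a type and less RNA per cell cannot be told apart. Neither form of PRMT1 brought a called change: against dKOEV, Ctnnb1 differed by -0.05 ± 0.04 in dKOPRMT (adjusted p = 0.46, 95% interval -0.13 to 0.03) and by -0.08 ± 0.04 in dKOMut (adjusted p = 0.23, 95% interval -0.16 to 0.0027). In the comparison of dKOPRMT with dKOMut the difference was 0.03 ± 0.04 (adjusted p = 0.85, 95% interval -0.05 to 0.11).

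Jup transcripts were highest in dKO cells with the empty vector and fell with wild-type PRMT1. Jup, which joins cadherins to the cytoskeleton at junctions, stood at 8.87 and 7.59 CPM in dKOPRMT, 9.46 and 9.28 CPM in dKOMut, 14.1 and 11.96 CPM in dKOEV, and 9.20 and 10.7 CPM in WTEV. The dKOEV libraries were above all others, while the dKOMut and WTEV libraries overlapped. In dKOPRMT it fell by 36.6% against dKOEV (-0.66 ± 0.19, adjusted p = 0.016). The call was lost without dKOEV replicate 1 (-0.54, adjusted p = 0.088) and without dKOPRMT replicate 2 (-0.55, adjusted p = 0.196). In dKOMut the difference from dKOEV was -0.47 ± 0.19 and did not pass (adjusted p = 0.11, 95% interval -0.86 to -0.09). The direct comparison of dKOPRMT with dKOMut gave -0.19 ± 0.19 (adjusted p = 0.77, 95% interval -0.58 to 0.21), so the effects of active and dead PRMT1 on Jup were not shown to differ. In dKOEV against WTEV the difference was 0.39 ± 0.19 (adjusted p = 0.18, 95% interval 0.0039 to 0.77). Jup remained a small part of the catenin pool by transcript: of the CPM per kb of Ctnnb1 and Jup together it made up 1.70% and 1.46% in dKOPRMT, 1.86% and 1.79% in dKOMut, 2.55% and 2.23% in dKOEV, and 1.48% and 1.67% in WTEV. The epithelial marker list, which could bring junction transcripts, held 4 of 8 genes at 0 counts in all libraries (Krt5, Krt14, Krt19 and Cldn4). Its summed level was 32.1 to 32.2 CPM in dKOPRMT, 28.4 to 30.6 CPM in dKOMut, 33.6 to 34.5 CPM in dKOEV and 27.7 to 32.8 CPM in WTEV. Cdh1 gave most of that sum, averaging 29.4 CPM in dKOPRMT, 27.0 CPM in dKOMut, 30.2 CPM in dKOEV and 27.9 CPM in WTEV. The part of these genes in the Jup result was not tested.

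Of the 4 destruction complex components, the scaffolds Apc and Axin1 rose in dKOPRMT against WTEV, and the kinases Gsk3b and Csnk1a1 were not called. Apc, the large scaffold and tumour suppressor, stood at 54.5 and 57.0 CPM in dKOPRMT, 53.0 and 54.8 CPM in dKOMut, 51.2 and 53.4 CPM in dKOEV, and 48.3 and 47.1 CPM in WTEV. All dKO libraries were above both wild-type libraries. In dKOPRMT Apc rose by 16.9% against WTEV (0.22 ± 0.08, adjusted p = 0.049), a call at the edge of the threshold that was lost in 8 alternatives, among them DESeq2 (adjusted p = 0.09), no filter on low counts (adjusted p = 0.0625) and without either WTEV library (adjusted p = 0.15 and 0.259), either dKOPRMT library (adjusted p = 0.118 and 0.268) or dKOMut replicate 1 (adjusted p = 0.0536). In dKOMut against WTEV the Apc difference was 0.18 ± 0.08 (adjusted p = 0.16), and in dKOEV against WTEV it was 0.13 ± 0.08 (adjusted p = 0.34).

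Axin1, the scaffold protein that assembles the complex, stood at 89.8 and 97.1 CPM in dKOPRMT, 90.6 and 89.1 CPM in dKOMut, 82.1 and 82.4 CPM in dKOEV, and 86.4 and 73.8 CPM in WTEV. The wild-type libraries were the most spread, with the dKOEV libraries between them. In dKOPRMT Axin1 rose by 16.5% against WTEV (0.22 ± 0.07, adjusted p = 0.025), a call lost with DESeq2 (adjusted p = 0.0568), without WTEV replicate 2 (0.11, adjusted p = 0.512) and without dKOPRMT replicate 2 (0.17, adjusted p = 0.276). Against dKOEV the difference in dKOPRMT was 0.18 ± 0.07 (adjusted p = 0.093), and in dKOMut it was 0.13 ± 0.07 (adjusted p = 0.31). In dKOMut against WTEV Axin1 differed by 0.16 ± 0.07 (adjusted p = 0.13), and it was called without WTEV replicate 1 (0.29, adjusted p = 0.0239).

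The kinases moved least. Gsk3b, which phosphorylates beta-catenin for degradation, stood at 108 and 112 CPM in dKOPRMT, 114 and 112 CPM in dKOMut, 104 and 106 CPM in dKOEV, and 109 and 110.0 CPM in WTEV. Csnk1a1 stood at 308 and 306 CPM in dKOPRMT, 303 and 300.4 CPM in dKOMut, 299 and 308 CPM in dKOEV, and 298 and 297 CPM in WTEV. Neither was called in any of the 6 comparisons, and their largest differences were 0.10 for Gsk3b (dKOMut against dKOEV) and 0.04 for Csnk1a1 (dKOPRMT against WTEV). Part of the Gsk3b exon sequence (260 bases, 3.13% of its length) overlaps BC031361 on the opposite strand, and the strand setting of the counting was not stated.

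The nuclear components were low, and none was called. Ctnnbip1 (ICAT), which blocks the binding of beta-catenin to TCF factors, stood at 11.6 and 14.4 CPM in dKOPRMT, 11.9 and 12.5 CPM in dKOMut, 11.6 and 13.7 CPM in dKOEV, and 12.9 and 11.8 CPM in WTEV. These groups overlapped throughout. Tcf7l2 (TCF4), a DNA-binding partner of beta-catenin, stood at 8.62 and 9.76 CPM in dKOPRMT, 7.87 and 8.62 CPM in dKOMut, 6.04 and 8.96 CPM in dKOEV, and 6.02 and 7.11 CPM in WTEV. The dKOPRMT and dKOMut libraries were above both wild-type libraries, while dKOEV replicate 1 lay between the wild-type libraries and dKOEV replicate 2 above them. The difference of dKOPRMT from WTEV was 0.49 ± 0.23 (adjusted p = 0.12, 95% interval 0.03 to 0.94), and it passed in a fit of those 2 groups alone (adjusted p = 0.0498). Against dKOEV it was 0.28 ± 0.22 in dKOPRMT (adjusted p = 0.47). From WTEV, Tcf7l2 differed by 0.33 ± 0.23 in dKOMut (adjusted p = 0.37) and by 0.21 ± 0.23 in dKOEV (adjusted p = 0.63).

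Tcf7 (TCF1), the TCF factor of T cells and early progenitors, had 29 and 50 counts in dKOPRMT (1.45 and 2.53 CPM), 47 and 59 in dKOMut (2.19 and 3.20 CPM), 41 and 52 in dKOEV (2.61 and 2.33 CPM), and 66 and 57 in WTEV (3.23 and 3.07 CPM). The dKOPRMT libraries were below both wild-type libraries, by -0.66 ± 0.41 on the log2 scale, which did not pass (adjusted p = 0.28, 95% interval -1.49 to 0.17). Lef1 had 0 and 0 counts in dKOPRMT, 1 and 0 in dKOMut, 0 and 4 in dKOEV, and 4 and 8 in WTEV. Against the limit of 3 counts that a count of 0 allows over a group, Lef1 was at least 4.07-fold lower in dKOPRMT than in WTEV, before the counting error of the 12 WTEV counts; with that error included, the 95% counting interval of the ratio ran from 0 to 0.353, or at least 2.83-fold lower. The ratio to WTEV was 0.0815 in dKOMut (95% counting interval 0.00191 to 0.551) and 0.342 in dKOEV (0.0803 to 1.13). Such intervals cover counting error only. With the filter lifted, edgeR gave Lef1 an adjusted p of 0.21 in dKOPRMT against WTEV and of 0.46 or more in the other 5 comparisons, so no change was detectable at this depth once the spread between libraries was counted. The T cell marker list was also highest in WTEV. Its 15 genes summed to 29.6 to 34.2 CPM in dKOPRMT, 35.5 to 40.8 CPM in dKOMut, 36.9 to 40.1 CPM in dKOEV and 64.7 to 66.3 CPM in WTEV. The T cell receptor component Cd3e was at 0 in all libraries, and 11 of the 15 genes averaged under 1 CPM over the 8 libraries. Cd28 gave most of the sum, averaging 16.3 CPM in dKOPRMT, 23.2 CPM in dKOMut, 23.7 CPM in dKOEV and 45.1 CPM in WTEV. The part of these genes in the Lef1 and Tcf7 levels was not tested.

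The make-up of the TCF and LEF transcripts leaned to Tcf7l2 in the dKO groups. Of the summed CPM per kb of Tcf7, Lef1, Tcf7l1 and Tcf7l2, Tcf7l2 made up 65.5% and 62.2% in dKOPRMT, 60.0% and 53.4% in dKOMut, 47.8% and 61.5% in dKOEV, and 43.5% and 43.0% in WTEV. Tcf7 made up 22.5% and 32.8% in dKOPRMT, 33.9% and 40.3% in dKOMut, 41.9% and 32.6% in dKOEV, and 47.5% and 37.8% in WTEV. The Tcf7l2 share was higher in all 6 dKO libraries than in the WTEV libraries, while the Tcf7 share was lower in the dKOPRMT libraries than in the dKOMut or WTEV libraries and overlapped between the other groups. Tcf7l1 (TCF3), mainly a repressor, made up 4.38% to 16.0% across the 8 libraries and Lef1 0% to 3.22%. These shares are descriptions with no test and rest on small counts.

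**Figure D3:**
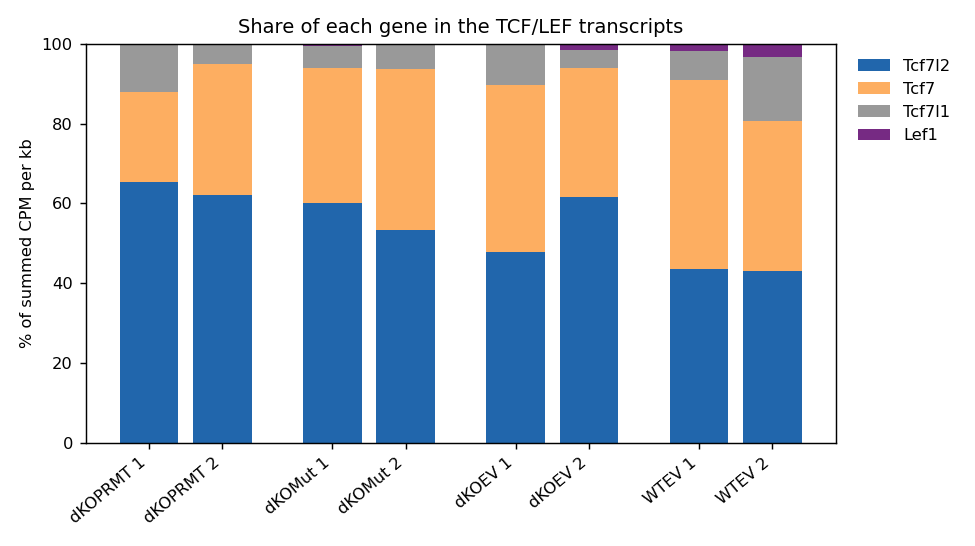
Share (vertical axis, % of summed CPM per kb) of Tcf7l2, Tcf7, Tcf7l1 and Lef1 in each library, with the dKOPRMT, dKOMut, dKOEV and WTEV libraries from left to right. Tcf7l2 makes up 47.8% to 65.5% in the dKO libraries and 43.5% and 43.0% in the WTEV libraries.

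The rest of the pathway was read through 10 lists holding 155 other genes, of which 101 were tested. Of these 101, 11 were called in dKOEV against WTEV (9 higher, 2 lower; 10.9%, against 15.4% of all tested genes). In dKOPRMT against dKOEV there were 9 (2 higher, 7 lower), in dKOMut against dKOEV 9 (3 higher, 6 lower), and in both comparisons this was 8.91% of those tested, against 14.6% of all tested genes with dKOPRMT and 11.3% with dKOMut. Between dKOPRMT and dKOMut edgeR called 0 of 101, against 3.11% of all tested genes. In dKOPRMT against WTEV 18 were called (9 higher, 9 lower) and in dKOMut against WTEV 18 (11 higher, 7 lower), 17.8% in each, against 23.2% of all tested genes with dKOPRMT and 19.4% with dKOMut. With 1 library left out at a time these counts ran from 8 to 14 in dKOEV against WTEV, 4 to 13 in dKOPRMT against dKOEV, 5 to 12 in dKOMut against dKOEV, and 11 to 21 in each comparison of a PRMT1 group with WTEV.

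At the top of the pathway, ligand transcripts were nearly absent. Of 19 Wnt ligands 3 were tested and none was called. Wnt9a was the highest at a mean of 1.54 CPM over the 8 libraries, and Wnt1, Wnt3a, Wnt4, Wnt5a, Wnt7b and Wnt16 had 0 counts in all of them. Wls, the carrier that brings Wnt proteins to the cell surface, was far more abundant and rose in all dKO groups. It stood at 103 and 98.3 CPM in dKOPRMT, 98.1 and 99.6 CPM in dKOMut, 95.05 and 95.15 CPM in dKOEV, and 74.9 and 76.9 CPM in WTEV. Against WTEV it rose by 0.41 ± 0.07 in dKOPRMT (adjusted p = 7.8e-06), 0.38 ± 0.07 in dKOMut (adjusted p = 2.6e-05) and 0.33 ± 0.07 in dKOEV (adjusted p = 0.00045).

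Among 12 tested receptors, Ryk was the one called in all 3 dKO groups against WTEV. Ryk, an atypical receptor with an inactive kinase domain, stood at 5.66 and 4.35 CPM in dKOPRMT, 5.54 and 4.34 CPM in dKOMut, 9.42 and 7.39 CPM in dKOEV, and 2.59 and 2.91 CPM in WTEV. It was highest in dKOEV and lowest in WTEV, with dKOPRMT and dKOMut between them. It rose 3.04-fold in dKOEV against WTEV (1.60 ± 0.28, adjusted p = 6.4e-05), 1.82-fold in dKOPRMT (0.86 ± 0.29, adjusted p = 0.025) and 1.80-fold in dKOMut (0.85 ± 0.29, adjusted p = 0.033). The first call held with any library left out, while the calls in dKOPRMT and dKOMut were lost with DESeq2 (adjusted p = 0.0501 and 0.0627), with limma voom (adjusted p = 0.0727 and 0.0849) and without either WTEV library, and also without dKOPRMT replicate 1 in dKOPRMT (adjusted p = 0.261) and without dKOMut replicate 1 in dKOMut (adjusted p = 0.25). Fzd1 was also called in dKOEV against WTEV (0.87 ± 0.30, adjusted p = 0.044), but its dKOEV libraries stood at 3.94 and 9.27 CPM against 3.38 and 3.98 CPM in WTEV. Without dKOEV replicate 2 the Fzd1 difference was 0.10 (adjusted p = 0.893), and the call was lost in 9 of the 15 alternatives. The co-receptor Lrp5 rose against WTEV in dKOPRMT (0.22 ± 0.07, adjusted p = 0.012) and in dKOMut (0.23 ± 0.07, adjusted p = 0.0098), calls lost without WTEV replicate 2 (adjusted p = 0.123 in dKOPRMT and 0.114 in dKOMut), without dKOPRMT replicate 1 in dKOPRMT (adjusted p = 0.194) and without dKOMut replicate 2 in dKOMut (adjusted p = 0.0513). In dKOPRMT against dKOEV, Fzd6 fell by 1.06 ± 0.29 on the log2 scale (adjusted p = 0.0093), with 3.96 and 2.73 CPM in dKOPRMT and 6.49 and 7.43 CPM in dKOEV. That call was lost without dKOEV replicate 2 (adjusted p = 0.0578) and without dKOPRMT replicate 2 (adjusted p = 0.19). Fzd6 also fell in dKOMut against dKOEV, by 0.86 ± 0.29 (adjusted p = 0.043), with 3.401 and 4.285 CPM in dKOMut, a call lost in 8 of the 15 alternatives (adjusted p up to 0.26). Fzd2, named after its values were seen, fell in dKOPRMT against dKOEV (adjusted p = 0.023). Its level was 0 CPM in both dKOPRMT libraries and a mean of 0.657 CPM in dKOEV. The Fzd2 call rests on few counts, 48 over the 8 libraries together. In dKOMut against dKOEV Fzd2 was not called (-1.30 ± 1.10, adjusted p = 0.53). Of 16 secreted and surface inhibitors 4 were tested and edgeR called none in the 6 comparisons.

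In the cytoplasm, the 9 genes of the Dishevelled list and the 20 destruction complex partners gave few calls. Ppp2r5a, a regulatory subunit of the phosphatase PP2A, was called in each comparison with WTEV. It stood at 197 and 193 CPM in dKOPRMT, 199.8 and 199 CPM in dKOMut, 190.6 and 173 CPM in dKOEV, and 159 and 165 CPM in WTEV. Its rise was 0.27 ± 0.05 in dKOPRMT (adjusted p = 0.00013), 0.30 ± 0.05 in dKOMut (adjusted p = 2.8e-05) and 0.17 ± 0.05 in dKOEV (adjusted p = 0.026). The dKOEV call was lost without dKOEV replicate 1 (adjusted p = 0.305), without either WTEV library (adjusted p = 0.226 and 0.0609) and in a fit of those 2 groups alone (adjusted p = 0.0574), while the others were kept under all 15 alternatives. Csnk1e, the casein kinase 1 epsilon that phosphorylates Dishevelled, rose in dKOEV against WTEV by 0.28 ± 0.09 (adjusted p = 0.02), a call lost without either WTEV library (adjusted p = 0.204 and 0.0626) and without dKOEV replicate 2 (adjusted p = 0.0848). It also rose in dKOMut against WTEV, by 0.27 ± 0.09 (adjusted p = 0.021), a call lost without dKOMut replicate 1 (adjusted p = 0.301) and without either WTEV library (adjusted p = 0.199 and 0.0557). In dKOPRMT against WTEV it differed by 0.12 ± 0.09 and was not called (adjusted p = 0.36). Frat2, which draws GSK3 away from Axin, rose in dKOPRMT against dKOEV by 0.39 ± 0.12 (adjusted p = 0.03), with 28.2 and 30.9 CPM in dKOPRMT and 23.1 and 22.0 CPM in dKOEV. The Frat2 call was lost with DESeq2 (adjusted p = 0.0636) and without dKOEV replicate 2 (adjusted p = 0.109) or either dKOPRMT library (adjusted p = 0.0618 and 0.256).

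Among 15 tested nuclear partners, Bcl9l was, like Jup, highest in dKOEV. Bcl9l, an adaptor that links beta-catenin to Pygopus, stood at 21.7 and 23.7 CPM in dKOPRMT, 20.4 and 20.9 CPM in dKOMut, 32.8 and 27.2 CPM in dKOEV, and 20.9 and 21.8 CPM in WTEV. The dKOEV libraries were above all others. It rose in dKOEV against WTEV (0.48 ± 0.13, adjusted p = 0.0069) and fell against dKOEV in dKOPRMT (-0.40 ± 0.13, adjusted p = 0.03) and in dKOMut (-0.53 ± 0.13, adjusted p = 0.0036). Without dKOEV replicate 1 all 3 calls were lost, with adjusted p of 0.10 in dKOEV against WTEV, 0.226 in dKOPRMT against dKOEV and 0.0645 in dKOMut against dKOEV. The first was also lost without WTEV replicate 1 (adjusted p = 0.0825), and the second with DESeq2 (adjusted p = 0.0662) and without either dKOPRMT library (adjusted p = 0.243 and 0.0797). The co-activator Ep300 rose in dKOMut against dKOEV by 0.20 ± 0.06 (adjusted p = 0.02), and so did the co-repressor Tle3 by 0.20 ± 0.06 (adjusted p = 0.024), which was the only call among 11 tested repressors in that comparison. Both were lost without dKOMut replicate 1 (adjusted p = 0.0953 for Ep300 and 0.176 for Tle3). The Ep300 call was also lost without dKOMut replicate 2 (adjusted p = 0.0688) and without dKOEV replicate 2 (adjusted p = 0.0615), and the Tle3 call without dKOEV replicate 1 (adjusted p = 0.225).

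Of 24 listed targets of canonical Wnt signalling, 15 were tested, and more were called lower than higher in every comparison with a call. All tested genes leaned the same way in dKOPRMT against dKOEV (8.67% lower, 5.96% higher) and in dKOMut against dKOEV (7.08% lower, 4.24% higher). They did so slightly against WTEV in dKOPRMT (12.2% lower, 11% higher) and dKOMut (9.96% lower, 9.41% higher). In dKOEV against WTEV they leaned higher (7% lower, 8.44% higher). In dKOPRMT against WTEV 1 rose and 6 fell, where 23.2% of all tested genes were called, and in dKOMut against WTEV 1 rose and 5 fell, where 19.4% were. Plaur rose in both, and Ccnd1, Ccnd2, Cd44, Jun and Sox4 fell in both, with Myc also falling in dKOPRMT. Axin2, the feedback inhibitor most used as a readout, was near 1 CPM. It stood at 0.953 and 0.354 CPM in dKOPRMT, 1.16 and 1.36 CPM in dKOMut, 1.53 and 1.88 CPM in dKOEV, and 0.588 and 1.13 CPM in WTEV. The dKOEV libraries were the highest, with no call: the difference was 1.00 ± 0.66 in dKOEV against WTEV (adjusted p = 0.36) and -1.38 ± 0.68 in dKOPRMT against dKOEV (adjusted p = 0.19).

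In dKOEV against WTEV, 1 of the 15 tested targets rose and 2 fell, against 15.4% of all tested genes called. Plaur, the urokinase receptor, rose by 0.56 ± 0.05 (adjusted p = 5.7e-10), with 187 and 178 CPM in dKOEV and 124 and 124 CPM in WTEV. The cell cycle gene Ccnd2 fell by 0.41 ± 0.05 on the log2 scale (adjusted p = 4e-07), and Myc, a regulator of growth, fell by 0.21 ± 0.05 (adjusted p = 0.0033). Ccnd2 stood at 159 and 164 CPM in dKOPRMT, 175 and 168 CPM in dKOMut, 165 and 179 CPM in dKOEV, and 222 and 235 CPM in WTEV. All dKO libraries were below the wild-type libraries for Ccnd2, as for Ctnnb1.

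Other targets differed with PRMT1, whether active or dead. Ccnd1, cyclin D1, stood at 62.2 and 61.9 CPM in dKOPRMT, 59.2 and 65.8 CPM in dKOMut, 90.8 and 94.4 CPM in dKOEV, and 99.2 and 101 CPM in WTEV. Against dKOEV it fell by 0.58 ± 0.07 on the log2 scale in dKOPRMT (adjusted p = 1.4e-07) and by 0.57 ± 0.07 in dKOMut (adjusted p = 2.5e-07). The AP-1 gene Jun also fell against dKOEV, by 0.53 ± 0.08 in dKOPRMT (adjusted p = 2.1e-06) and by 0.71 ± 0.08 in dKOMut (adjusted p = 1e-08). So did the adhesion receptor Cd44, by 0.27 ± 0.04 in dKOPRMT (adjusted p = 3.2e-06) and by 0.24 ± 0.04 in dKOMut (adjusted p = 2.6e-05). In dKOPRMT against dKOEV 1 target rose (Ascl2, under 1 CPM in each group mean) and 4 fell, with Sox4 the last of them, against 14.6% of all tested genes called. In dKOMut against dKOEV 1 rose (Birc5) and 4 fell, with Id2 the last of them, and these 4 further names (Ascl2, Sox4, Birc5 and Id2) were picked after their values were seen. There 11.3% of all tested genes were called. Between dKOPRMT and dKOMut edgeR called 0 of the 15. The named calls of Plaur, Ccnd2, Myc, Ccnd1, Jun and Cd44 in these comparisons held with any library left out. All 6 are expressed in many cell types and respond to other signals. Marker sums of neutrophils and stem cells, given above, moved with the groups. So did those of monocytes and macrophages, mast cells and basophils, and megakaryocytes, given below with the processing. The part of these cell types in the target calls was not tested.

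**Figure D4:**
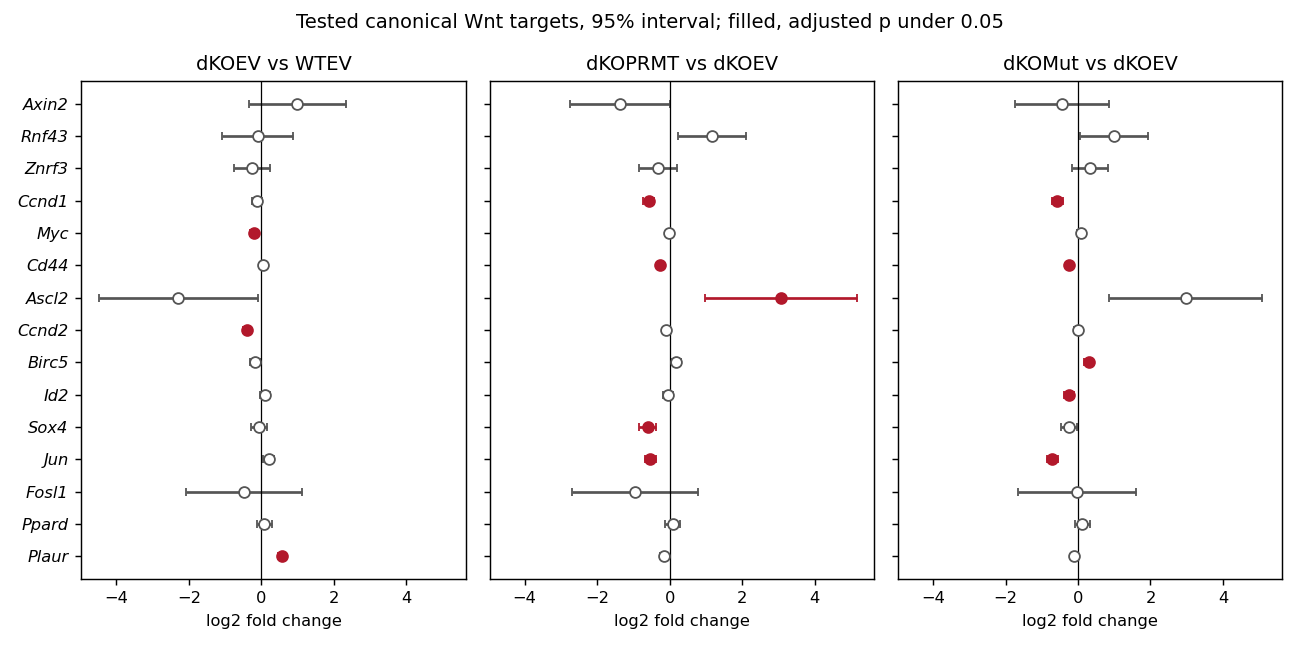
log2 fold change (horizontal axes) of the tested canonical Wnt targets in each comparison shown, with 95% intervals; filled points passed an adjusted p of 0.05. Ccnd1 lies at -0.58 in dKOPRMT against dKOEV and at -0.57 in dKOMut against dKOEV, and Plaur lies at 0.56 in dKOEV against WTEV.

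Dsp and Dsg2, the desmosomal plaque protein and a desmosomal cadherin that bind plakoglobin, were higher in the dKO groups than in wild type, while the plakophilins of the same junctions were not called. Of 20 adhesion genes 12 were tested. In dKOEV against WTEV 2 rose and 0 fell, near the 15.4% of all tested genes. Against WTEV 3 rose and 2 fell in dKOPRMT (23.2% of all tested genes were called) and 2 rose and 2 fell in dKOMut (19.4%). Pkp2 differed from WTEV by -1.67 ± 1.11 in dKOPRMT (adjusted p = 0.32) and -0.86 ± 1.02 in dKOMut (adjusted p = 0.65), and Pkp3 by 0.09 ± 0.20 in dKOPRMT (adjusted p = 0.81) and -0.21 ± 0.20 in dKOMut (adjusted p = 0.55). In dKOEV against WTEV Pkp2 differed by 0.45 ± 0.94 (adjusted p = 0.82) and Pkp3 by 0.33 ± 0.20 (adjusted p = 0.30). Dsp stood at 13.3 and 12.1 CPM in dKOPRMT, 11.9 and 9.49 CPM in dKOMut, 9.16 and 9.94 CPM in dKOEV, and 4.16 and 3.12 CPM in WTEV. All dKO libraries were above both wild-type libraries. Against WTEV, Dsp rose 3.47-fold in dKOPRMT (1.80 ± 0.22, adjusted p = 3.8e-08), 2.93-fold in dKOMut (1.55 ± 0.22, adjusted p = 9e-07) and 2.62-fold in dKOEV (1.39 ± 0.22, adjusted p = 1.6e-05). These calls held with any library left out.

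Dsg2 had 19 and 18 counts in dKOPRMT, 18 and 11 in dKOMut, 58 and 33 in dKOEV, and 3 and 1 in WTEV. It was nearly absent from wild-type libraries and most abundant in dKOEV. The ratio to WTEV of summed counts, scaled to library size, was 23.3 in dKOEV (95% counting interval 8.80 to 87.4), 9.08 in dKOPRMT (3.26 to 35.1) and 7.09 in dKOMut (2.49 to 27.7). It rose in dKOEV against WTEV with an adjusted p of 0.00025, at most 0.0187 with 1 library left out. Dsg2 was called in dKOPRMT (adjusted p = 0.012) and in dKOMut (adjusted p = 0.037) against WTEV too, but these calls were lost without either WTEV library. Of the alternatives that tested Dsg2, 3 lost the call in dKOPRMT and 11 kept it. In dKOMut 7 lost it and 7 kept it. Against dKOEV neither Dsp nor Dsg2 was called in either PRMT1 group. The catenin p120 (Ctnnd1) and the phosphatase Ptprj, which acts on junction proteins, fell against WTEV in dKOPRMT (by 0.19 ± 0.06 and 0.19 ± 0.06 on the log2 scale, adjusted p = 0.023 and 0.011) and in dKOMut (by 0.21 ± 0.06 and 0.26 ± 0.06, adjusted p = 0.0095 and 0.00069). The Ctnnd1 call was lost in both groups without either WTEV library, and also without either dKOPRMT library in dKOPRMT (adjusted p = 0.152 and 0.0868) and without dKOMut replicate 1 in dKOMut (adjusted p = 0.163). The Ptprj call in dKOPRMT was lost without WTEV replicate 1 (adjusted p = 0.166) and without dKOPRMT replicate 1 (adjusted p = 0.125), while that in dKOMut was kept under all 15 alternatives. Cdh1, E-cadherin, a binding partner of both catenins, averaged 28.6 CPM over the libraries and was not called.

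**Figure D5:**
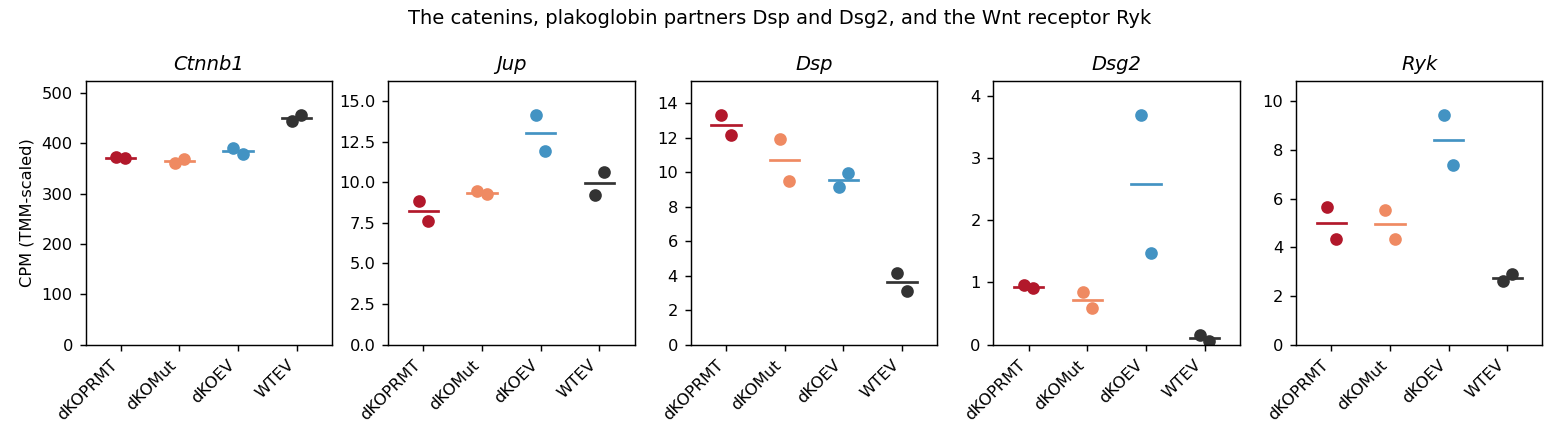
CPM (vertical axes, from 0) of Ctnnb1, Jup, Dsp, Dsg2 and Ryk in each library, with dKOPRMT, dKOMut, dKOEV and WTEV from left to right; points are libraries and bars are group means. Dsp is above 9 CPM in the dKO libraries and at 4.16 and 3.12 CPM in the WTEV libraries, and Dsg2 and Ryk are highest in dKOEV.

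The genes whose library-by-library pattern was nearest to those of the catenins were found by the root mean square difference of centred log2 CPM over the 8 libraries, among 9944 genes averaging at least 5 CPM. For Ctnnb1 these were Gemin4 (0.0232), Nop58 (0.0308), Evi2a (0.0349), Eif6 (0.0357) and Fbxo8 (0.0357), where the median over all genes was 0.173. Gemin4 stood at 37.6 and 39.0 CPM in dKOPRMT, 37.3 and 37.9 CPM in dKOMut, 40.5 and 39.1 CPM in dKOEV, and 44.2 and 46.7 CPM in WTEV. For Jup the nearest were H1fx (0.0588), Meis1 (0.0828), Thtpa (0.0851), Tnfrsf10b (0.0884) and Trim12a (0.0997), where the median over all genes was 0.281. Meis1, a homeobox partner of Hoxa9, stood at 20.6 and 19.7 CPM in dKOPRMT, 25.1 and 25.3 CPM in dKOMut, 35.9 and 32.2 CPM in dKOEV, and 25.2 and 25.3 CPM in WTEV. As with Jup, its dKOEV libraries were above all others. With 8 libraries in 4 groups, the nearness is given as a description only.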

How the data were processed

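RNA from 8 mouse HSPC libraries, 4 groups of 2, was sequenced; per the labels' protocols the kits were RNeasy Plus Micro for purification and NEB Ultra II Directional for the libraries. Trim Galore 0.6.6, STAR 2.7.6a, featureCounts and GRCm38 (mm10) are named in the submitters' processing notes, and neither annotation nor strand setting was stated. The authors deposited a table of raw counts, with the length of each gene, and no replicate was pooled. The titles gave the groups, because the source and cell type fields name all 8 libraries dKO.

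In edgeR 4.0.16 (R 4.3.3), 12744 genes passed filterByExpr, TMM scaled the libraries, and 1 robust quasi-likelihood model over the 8 libraries held group and no other term (4 residual degrees of freedom, common biological coefficient of variation 0.0637). Adjusted p-values are Benjamini-Hochberg over all tested genes. SEs and 95% intervals were derived from each fold change with its F value. Library totals were 15531344 to 22329749 counts. The spread between replicates exceeded sampling noise in every group (chi-square per degree of freedom 3.63 to 6.39). The steps were tested on simulated data. Alternatives were DESeq2 size factors, 2 other filters, DESeq2 1.42.0, limma voom (3.58.1), fits limited to the 2 groups compared, a replicate block and each library left out.

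The 10 genes, the 10 pathway lists, the 11 marker lists and the tests were chosen with earlier results of these data known. The text names all 10 genes, Hoxa9, Prmt1, Axin2, up to 3 called genes per pathway list with the smallest p and a mean of at least 1 CPM, and the 5 genes nearest Ctnnb1 and Jup; some are left out for room. Of the 11 marker lists, those for stem and progenitor cells, neutrophils, T cells and epithelium are reported beside the results they touch. For the other lists, monocyte and macrophage sums were 7583 to 7600 CPM in dKOPRMT and 7742 to 8199 CPM in dKOMut. They were 8771 to 9670 CPM in dKOEV and 9821 to 9928 CPM in WTEV. Mast cell and basophil sums were 434 to 446 CPM in dKOPRMT and 806 to 807 CPM in dKOMut. In dKOEV they were 651 to 670 CPM and in WTEV 1228 to 1276 CPM. Megakaryocyte sums were 691 to 724 CPM in dKOPRMT and 670.3 to 676 CPM in dKOMut. They reached 1041 to 1045 CPM in dKOEV and 1055 to 1056 CPM in WTEV. Over the 8 libraries, erythroid sums were 15.1 to 63.6 CPM and NK cell sums 84.2 to 118 CPM. B cell sums were 17.0 to 26.7 CPM and those of endothelium and stroma 124 to 154 CPM. The NK cell sum was highest in dKOPRMT, and the erythroid, B cell and endothelial sums in WTEV.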

Additional observations from a re-analysis of the deposited data

How the results depend on the processing

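Each of 54 gene results was recomputed under 15 alternatives, 8 of them leaving out 1 library. Of these values 769 kept their direction and their side of the threshold, 13 lost a call, 2 gained one and 26 changed sign, of which 0 were called in either fit. The 3 Ctnnb1 calls against WTEV were kept under every alternative. With 2 libraries a group, leaving one out leaves a lone library that is assumed to vary like the others.

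Of the 9 tested genes, the 3 called in dKOPRMT against WTEV became 1 under DESeq2 and 1 to 3 with single libraries left out; the corresponding counts were 0 to 1 in dKOPRMT against dKOEV and 1 to 2 in dKOMut against WTEV. Over all tested genes, with single libraries left out, 1954 to 3394 were called in dKOPRMT against WTEV, 1058 to 1945 in dKOPRMT against dKOEV, 171 to 550 in dKOPRMT against dKOMut, and 1149 to 1996 in dKOEV against WTEV. The count of 101 other pathway genes ran from 4 to 13 in dKOPRMT against dKOEV.

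The groups share replicate numbers in the labels, but same-numbered libraries showed no common shift in expression. The correlation of same-numbered deviations from the group means was -0.041 to 0.0202 over 9945 genes. With a single deviation per group, these values cannot show whether same-numbered libraries share an animal or batch, which is not labelled. A replicate block ended the Apc call in dKOPRMT against WTEV (0.22, adjusted p = 0.053) and the Fzd1 call in dKOEV against WTEV (0.82, adjusted p = 0.053), leaving 2 of the 9 genes called in dKOPRMT against WTEV.

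The log2 fold changes that changed sign did so with single libraries left out, and the cause was not tested. The ranges for Ctnnbip1 were -0.0873 to 0.21 in dKOPRMT against WTEV, -0.12 to 0.18 in dKOPRMT against dKOEV, -0.0706 to 0.23 in dKOPRMT against dKOMut, -0.0826 to 0.0531 in dKOMut against WTEV, -0.16 to 0.0807 in dKOMut against dKOEV, and -0.10 to 0.14 in dKOEV against WTEV. For Csnk1a1 they were -0.006 to 0.0413 in dKOPRMT against dKOEV, -0.0252 to 0.0217 in dKOMut against dKOEV, and -0.0015 to 0.0452 in dKOEV against WTEV. For Tcf7 they were -0.76 to 0.0413 in dKOPRMT against dKOEV, -0.52 to 0.0215 in dKOMut against WTEV, and -0.17 to 0.38 in dKOMut against dKOEV. For Tcf7l2 they were -0.12 to 0.45 in dKOMut against dKOEV and -0.12 to 0.45 in dKOEV against WTEV. For Axin1 they were -0.002 to 0.11 in dKOPRMT against dKOMut and -0.0723 to 0.16 in dKOEV against WTEV. Gsk3b ranged from -0.0235 to 0.0252 and Axin2 from -1.26 to 0.16 in dKOPRMT against WTEV, and Jup from -0.18 to 0.0266 in dKOMut against WTEV. Depth limits the low genes, among them Lef1, Tcf7, Axin2 and Dsg2, each under 4 CPM in every library.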
